A study of Sus scrofa with 32 samples.

Results

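Gene expression in the fat around a coronary artery was compared with that of the aortic wall within the same obese pigs. The members were the arrays of obese Ossabaw swine from perivascular adipose tissue beside the left anterior descending coronary artery (PVAT) and from the descending thoracic aorta (TA), paired by pig number. Pigs 51, 55, 81 and 85 gave 4 pairs, which are 8 of the 32 arrays of the series. Pig 57 was left out because its TA array carried an epithelial signal. The mean log2 signal of 6 epithelial genes was 10.99 in that array, against 7.55 to 8.07 in the TA arrays of the other 4 pigs. The obese pigs had eaten a diet high in fat, high-fructose corn syrup and cholesterol for 16 weeks, starting at 5 to 6 weeks of age, and were studied at 22 weeks. Lean pigs on a low fat diet for the same time, of which 5 had both tissues, served for comparison. Before extraction the TA had been cleared of fat and of loose adventitia. A kit for lipid-rich tissue served for PVAT and another for the TA, so that kit and tissue cannot be told apart. All values come from whole-tissue RNA, in which fewer cells of a type and less RNA per cell cannot be told apart.

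Ossabaw swine are miniature pigs that become obese on energy-rich diets and are used as a model of metabolic and coronary disease. Perivascular fat stores triglyceride in adipocytes, releases fatty acids and signalling proteins, and is threaded with small vessels, lymphatics and nerves. On the heart it lies between the coronary artery and the heart muscle. The thoracic aorta is an elastic artery whose media is built of layers of smooth muscle cells between elastin sheets, with collagens and proteoglycans around them.

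Levels are deposited log2 signals of single probe sets, and differences are PVAT minus TA in log2 units with the standard error (SE) from limma. A gene is represented by its brightest probe set over the 8 arrays, and it passed at a limma adjusted p under 0.05. Lists of 4 values follow the order of pigs 51, 55, 81 and 85. Folds are left out for genes with a tissue mean under 6.64, the log2 of an intensity of 100. Their log2 differences are those of the deposited values, which come without detection calls, and their order has no firm meaning. Arrays of 1 tissue correlated at 0.886 to 0.956 within PVAT and 0.941 to 0.986 within TA, while PVAT and TA arrays correlated at 0.799 to 0.844. The 28S/18S ratio, a measure of RNA integrity, averaged 0.903 ± 0.234 (SD, n = 4) in PVAT and 0.938 ± 0.402 (n = 4) in TA. In TA this ratio was 1.28 and 1.29 in pigs 51 and 55 and 0.61 and 0.57 in pigs 81 and 85. The pigs were killed on 3 dates, with pigs 81 and 85 on the same one. A split of pigs 51 and 55 from pigs 81 and 85 therefore cannot be told apart from date, nor in TA from this ratio.

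PVAT and TA differed over much of the genome that the array covers. Of 14327 probe sets, 1398 were higher in PVAT (9.76%) and 1609 were lower (11.2%), together 21%. By gene, 876 of 8390 were higher (10.4%) and 884 were lower (10.5%), and the median difference over all genes was 0.01. Among the lists with at least 5 measured genes, nerve, heart muscle, lymphatic, interferon and lipid storage genes had the highest medians, and contractile smooth muscle, elastic fibre and collagen genes the lowest. In 1346 genes (16%) every PVAT array was above every TA array, and in 1378 (16.4%) every one was below. A difference of at least 1 log2 unit was reached by 856 of the higher and 809 of the lower probe sets. Without pig 55 the counts were 540 higher and 604 lower, without pig 81 the higher count was 834, and without pig 85 the lower count was 915. With pig 57 added they were 835 and 501.

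**Figure D1:**
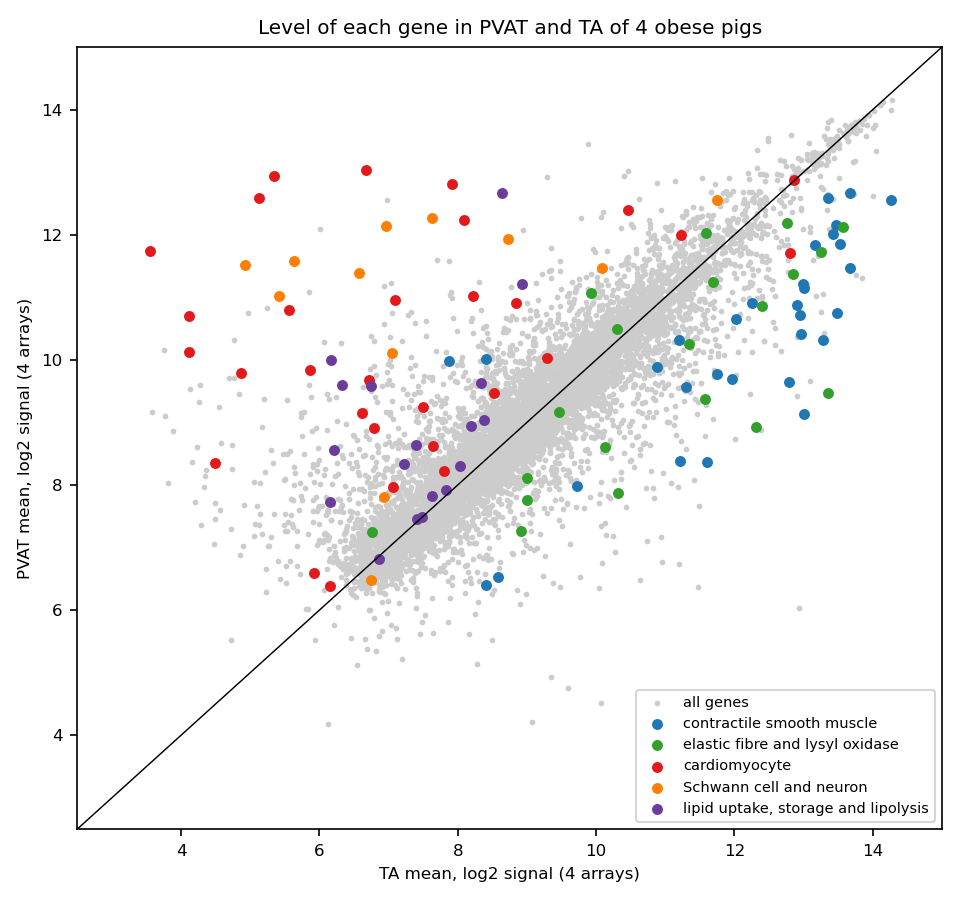
Mean log2 signal of each of 8390 genes in PVAT (vertical) and TA (horizontal) of 4 obese pigs, with 5 gene lists coloured and the line of equal levels drawn. Cardiomyocyte and Schwann cell and neuron genes lie mostly above the line, and contractile smooth muscle genes lie mostly below it.

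Adipocyte genes were higher in the samples labelled as fat, with exceptions. Of 10 measured adipocyte identity and adipokine genes, 5 were higher in PVAT and 0 were lower, with a list median of 1.13. PPARG, the nuclear receptor that drives adipocyte differentiation, measured 9.86, 9.74, 7.29 and 6.69 in PVAT and 6.49, 6.49, 5.54 and 5.47 in TA. The PVAT of pigs 51 and 55 was far above that of pigs 81 and 85, and the lowest PVAT value was above the highest TA value. The difference was 2.39 (SE 0.41, limma adjusted p = 0.0132). FABP4, the fatty acid carrier of adipocytes, measured 13.85, 13.87, 12.01 and 12.05 in PVAT and 9.95, 10.80, 10.64 and 10.24 in TA, without overlap. It was 5.80-fold higher (2.53, SE 0.43, limma adjusted p = 0.0136). CFD, the adipokine adipsin, was 5.62-fold higher (2.49, SE 0.12, limma adjusted p = 0.000712), and the amino acid transporter SLC7A10 was 2.57-fold higher. The other 5 genes of the list, ADIPOQ among them, did not pass. AGT, the precursor of angiotensin that adipocytes also make, measured 13.76, 13.69, 11.24 and 11.49 in PVAT and 6.65, 7.88, 6.68 and 6.72 in TA. Every PVAT array was above every TA array, and the difference of 5.56 (SE 0.44) was 47.3-fold (limma adjusted p = 0.00147).

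The probe set that the authors name ADIPOQ, for adiponectin, did not separate the tissues. It measured 10.95, 10.82, 10.84 and 10.69 in PVAT and 10.60, 10.71, 10.67 and 10.78 in TA, a difference of 0.13 (SE 0.13, limma adjusted p = 0.497). The groups overlapped, and the mean in the LAD of the same pigs was 10.75 ± 0.16 (SD, n = 4). The platform annotation used here gives this probe set no symbol. The lipid droplet genes PLIN1 and CIDEC, the brown fat gene UCP1 and the smooth muscle actin ACTA2 have no probe set under those symbols in the table used here.

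Genes that take up and store lipid were higher in PVAT, with 8 of 18 passing upward, 0 downward and a median of 1.17. LPL, the lipase that frees fatty acids from circulating triglyceride, measured 13.51, 13.19, 11.66 and 12.33 in PVAT and 9.84, 9.73, 7.52 and 7.49 in TA. Pigs 51 and 55 were higher than pigs 81 and 85 in both tissues, and every PVAT value was above every TA value. LPL was 16.3-fold higher in PVAT (4.03, SE 0.25, limma adjusted p = 0.000922). DGAT2, which makes triglyceride, measured 11.51, 12.68, 8.32 and 7.48 in PVAT and 6.02 to 6.28 in TA. CIDEA, a lipid droplet protein, measured 11.54, 11.58, 8.06 and 7.22 in PVAT and 6.20 to 6.55 in TA. For both genes the PVAT of pigs 51 and 55 stood more than 3 units above that of pigs 81 and 85, and their differences of 3.82 (SE 0.95) and 3.27 (SE 0.86) passed (limma adjusted p = 0.0404 and 0.0477). GPD1, which supplies the glycerol backbone, was 7.07-fold higher. Fewer of these genes passed when 1 pig was left out: without pig 55 the storage count was 2 and the adipocyte identity count was 2, and without pig 51 or pig 81 the storage count was 5. With pig 57 added the storage count was 4.

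Of 13 measured genes of fatty acid synthesis, 1 was higher in PVAT (7.69%), near the 10.4% of all genes, and the median difference was 0.22. The median was 1.38 in the lean pigs and 2.15 in lean pig 73. That gene was ACSS2, which makes acetyl-CoA from acetate (1.03, SE 0.19, 2.04-fold, limma adjusted p = 0.016). FASN, the fatty acid synthase, measured 9.63, 11.08, 10.08 and 8.69 in PVAT and 8.92, 8.48, 8.43 and 8.85 in TA. The PVAT of pig 85 lay within the TA range, and the difference of 1.21 (SE 0.44) did not pass (limma adjusted p = 0.113). Without pig 55 no gene of the list passed, and without pig 51 the count was 2.

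Genes of fatty acid oxidation and of mitochondria were higher in part, by small differences. In fatty acid oxidation 8 of 23 were higher and 0 lower, with a median of 0.91. They included ETFDH, which passes electrons from fatty acid oxidation to ubiquinone (1.42, SE 0.28, 2.67-fold). Also higher were ACAA2, a thiolase (1.31, SE 0.29), ECI1, an enoyl-CoA isomerase (1.19, SE 0.21), and ANGPTL4, an inhibitor of LPL (1.65, SE 0.40). The ANGPTL4 values of PVAT and TA overlapped, and its difference in pig 85 was 0.29. In the citrate cycle 7 of 22 were higher, led by the malate dehydrogenase MDH1. It measured 12.15, 12.61, 12.53 and 12.97 in PVAT and 11.10, 10.78, 10.20 and 10.37 in TA, without overlap, and was 3.87-fold higher (1.95, SE 0.27, limma adjusted p = 0.00714). SDHA, a subunit of succinate dehydrogenase, was 2.17-fold higher. In the respiratory chain and ATP synthase 11 of 67 were higher (16.4%) against 10.4% of all genes, with a median of 0.76. COX5A, a cytochrome c oxidase subunit, measured 11.58, 11.94, 12.41 and 12.99 in PVAT and 11.11, 10.93, 10.42 and 10.63 in TA. Pig 85 had the highest and pig 51 the lowest PVAT value, and the difference was 1.46 (SE 0.33, limma adjusted p = 0.0325). The platform annotation names this probe set LOC100156967.

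The mitochondrial counts varied widely with the pigs and the fit. Without pig 51, 37 respiratory chain genes were higher. Without pig 55, 81 or 85 the count was 0 in each case. For the citrate cycle the counts were 10 without pig 51 and 2 without each of the others, and for fatty acid oxidation they were 0 without pig 55, 4 without pig 81 and 5 without pig 85. With pig 57 added the 3 counts were 2, 1 and 3. The respiratory chain count was 22 after quantile normalization, 27 without the pig as a block and 32 with lean pigs in the same fit. It was 39 in pigs 81 and 85 alone and 58 with the 28S/18S ratio as a covariate, where the citrate cycle had 19 and fatty acid oxidation 14. The list mean of the respiratory chain was 10.85, 11.31, 11.49 and 12.14 in PVAT and 10.50 to 10.88 in TA, and the PVAT values follow the same order as the cardiomyocyte list mean given below. The fit of obese and lean pigs together gave 32 respiratory chain, 13 citrate cycle and 12 fatty acid oxidation genes higher. Only in that fit was the cardiomyocyte list mean added as a covariate. With it 0 of 67 respiratory chain genes, 3 of 22 citrate cycle genes and 3 of 23 fatty acid oxidation genes were higher. The median differences of the respiratory chain, citrate cycle and fatty acid oxidation lists were 0.76, 0.74 and 0.91 in the obese pigs. In lean pig 73, a single pair described below, they were 0.24, 0.28 and 0.56. The part of heart muscle RNA in these differences was not tested.

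Of 17 genes that break down branched-chain amino acids, 5 were higher (29.4% against 10.4% of all genes), such as PCCB, a subunit of propionyl-CoA carboxylase (1.36, SE 0.17, 2.57-fold, limma adjusted p = 0.00556). The count was 1 without pig 55 and 2 without pig 81 or pig 85. In glycolysis 3 of 17 were higher (17.6%, against 10.4% of all genes). Among them were LDHB, a lactate dehydrogenase subunit (1.01, SE 0.18), and HK2, a hexokinase (1.13, SE 0.25). HK2 measured 8.37, 8.43, 6.43 and 7.08 in PVAT and 7.81, 7.77, 4.83 and 5.37 in TA, so the groups overlapped. Without pig 55 the glycolysis count was 0 and without pig 81 it was 1. In insulin signalling 2 of 17 were higher and 2 lower, 11.8% each, near the 10.4% and 10.5% of all genes. The lower ones included TRIB1, a pseudokinase, at 8.04, 8.26, 8.02 and 8.01 in PVAT against 9.15, 9.62, 11.69 and 10.55 in TA (limma adjusted p = 0.0229). Without pig 55 or pig 85 no insulin signalling gene passed in either direction. Cholesterol synthesis and uptake had 1 higher gene of 24 (4.17%, against 10.4% of all genes). This was HSD17B7 (1.30, SE 0.29), which was no longer called without pig 51 or pig 55. Of 4 thermogenic genes, 2 were higher, with a median of 2.02. These were CIDEA and PPARGC1A, a coactivator of mitochondrial genes that heart muscle also uses. In lean pig 73 their differences were 4.99 and -0.04, and the list median was 0.31. PPARGC1A measured 5.93, 7.17, 7.25 and 8.82 in PVAT and 4.56 to 4.99 in TA, again with pig 51 lowest and pig 85 highest, and neither gene passed without pig 55 or pig 81.

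Heart muscle genes were much higher in PVAT. Of 30 measured cardiomyocyte genes, 18 were higher in PVAT and 0 were lower, with a median of 2.66. TNNT2, the cardiac troponin T, measured 9.27, 11.92, 12.40 and 13.36 in PVAT and 3.81, 3.46, 3.16 and 3.80 in TA. MYL2, the ventricular myosin light chain, measured 10.98, 13.11, 13.45 and 14.22 in PVAT and 5.34, 5.30, 5.68 and 5.08 in TA. MB, the oxygen-binding myoglobin, measured 10.48, 12.86, 13.04 and 13.99 in PVAT and 4.65 to 5.63 in TA. In all 3 genes pig 51 was lowest, pig 85 was highest and the groups were far apart. The differences were 8.18 (SE 0.69, limma adjusted p = 0.00172), 7.59 (SE 0.54, 0.0011) and 7.47 (SE 0.59, 0.00145). TNNI3, the cardiac troponin I, was 82.9-fold higher (6.37, SE 0.38, limma adjusted p = 0.00091). The giant sarcomere protein TTN differed by 6.02 (SE 0.94) and the muscle LIM protein CSRP3 by 6.58 (SE 0.91), although a second CSRP3 probe set differed by only 0.30. ACTA1, the skeletal muscle actin that is also made in heart, was the 1 higher gene of 2 skeletal muscle genes (3.89, SE 0.74, 14.8-fold). It was not called without pig 55, 81 or 85. Its difference was -0.055 with the cardiomyocyte list mean as a covariate in the fit with lean pigs.

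**Figure D2:**
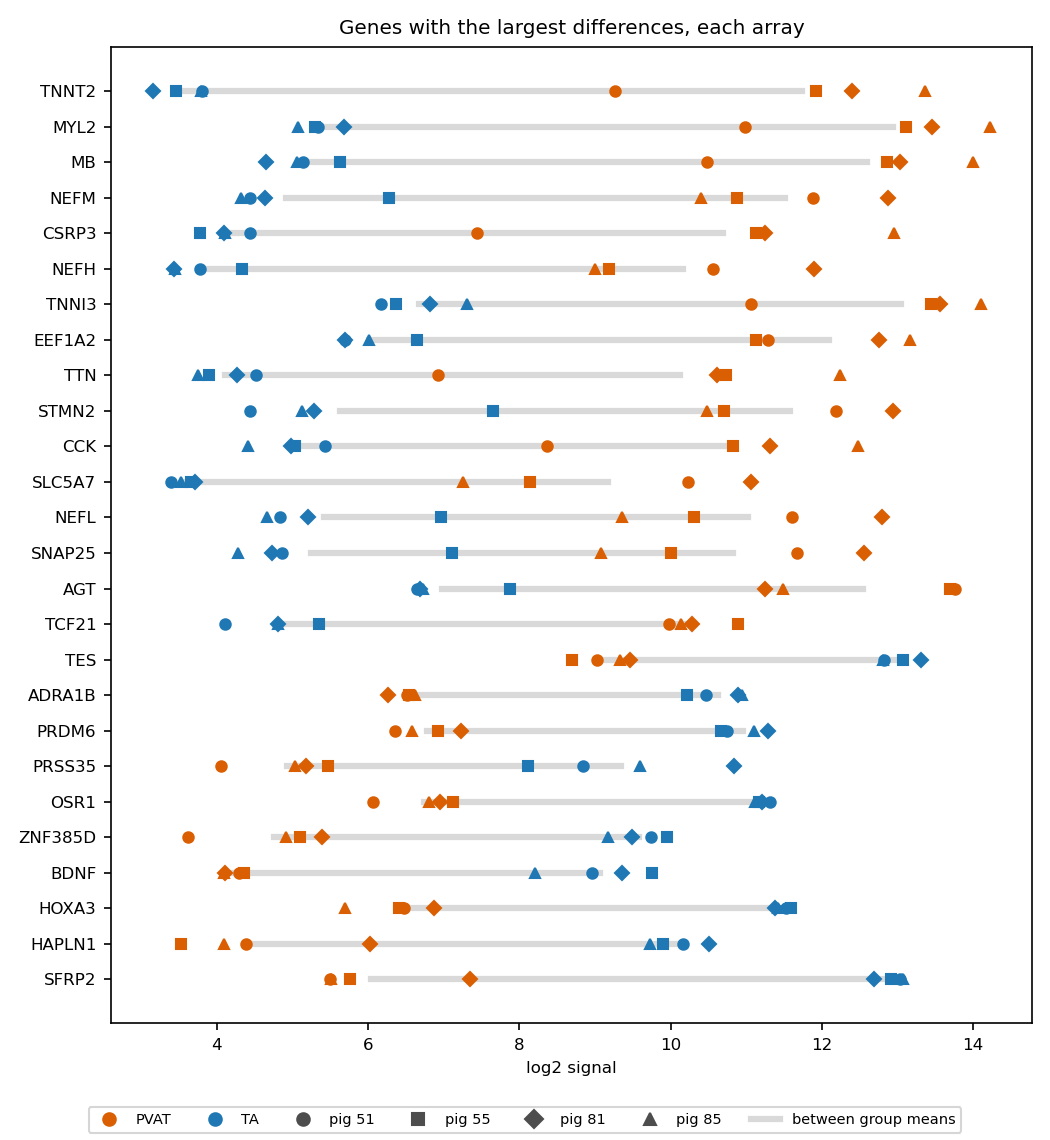
Log2 signal of the 10 genes with the largest higher and the 10 with the largest lower differences of deposited values, and of further genes that were also at least 1 log2 unit higher in PVAT of lean pig 73. Each row shows 4 PVAT and 4 TA arrays with a symbol per pig, and PVAT and TA do not overlap for any gene shown.

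The heart muscle signal differed widely between PVAT samples and little between TA samples. The list mean was 8.39, 10.43, 10.72 and 11.94 in PVAT and 7.24, 7.31, 7.27 and 7.14 in TA. The adipocyte identity list mean ran differently in PVAT, at 10.83, 10.88, 9.89 and 9.55, so pigs 81 and 85 had less fat signal than pigs 51 and 55. Without pig 55 the count of higher cardiomyocyte genes was 8, and without pig 81 it was 11. Lean pig 73 provided a PVAT sample with little heart muscle RNA, with a list mean of 6.68 in PVAT and 7.44 in TA. Its median difference over the 30 cardiomyocyte genes was 0.10, while the other 4 lean pigs with both tissues had PVAT list means of 9.34 to 11.79. Of the 876 genes higher in the obese PVAT, 543 were higher by at least 1 in pig 73 and 17 were at 0 or below. Of the 884 lower genes, 440 were at -1 or below in pig 73 and 11 were at 0 or above. Pig 73 is a single lean pair, so these counts have no replicate check.

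**Figure D3:**
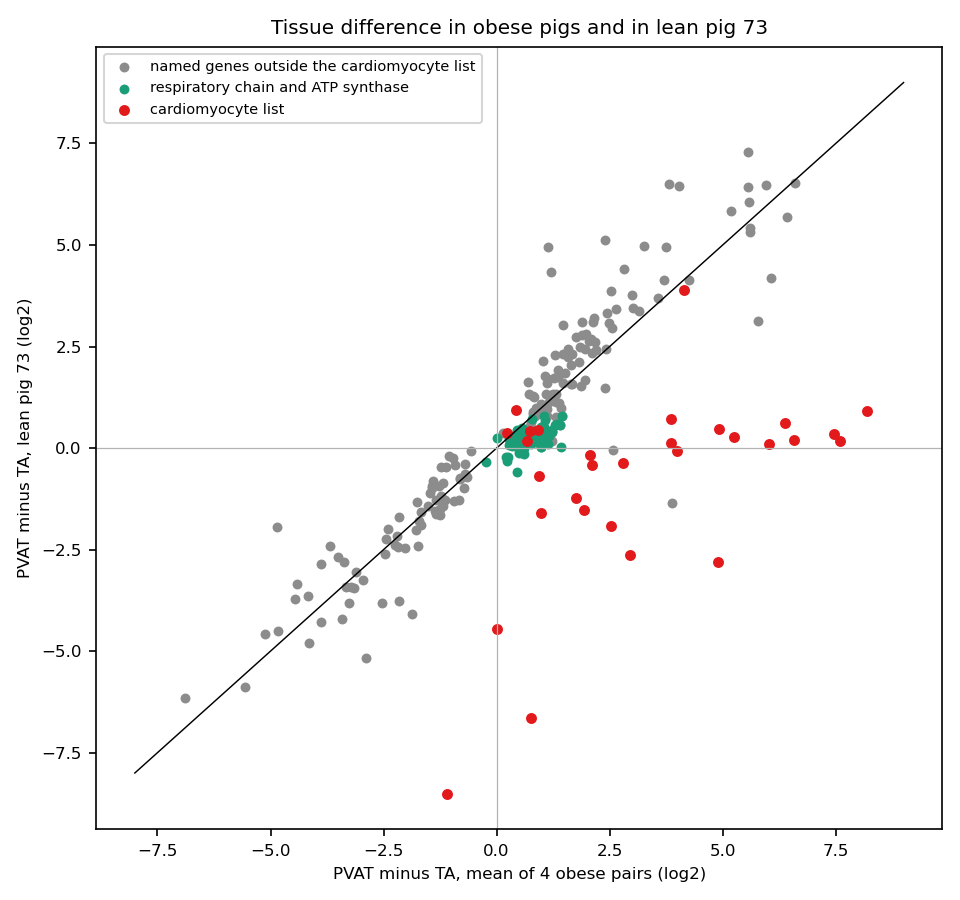
PVAT minus TA difference in 4 obese pairs (horizontal, log2) against the same difference in lean pig 73 (vertical, log2), 1 point per gene, with the line of equal differences. Cardiomyocyte genes with obese differences of up to 8.18 lie mostly near or below 0 in pig 73. Most other named genes lie near the line, but 10 were named by a rule that asked for at least 1 in pig 73. Respiratory chain genes are also coloured, with medians of 0.76 in the obese pigs and 0.24 in pig 73.

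Nerve and Schwann cell genes had the highest median of the lists with at least 5 measured genes. Of 12 measured genes, 10 were higher and 0 lower, with a median of 3.92. Lean pig 73 had nearly the same median. In the fit with lean pigs 10 of the 12 genes were higher, and 9 with the cardiomyocyte covariate there. MBP, the myelin basic protein of Schwann cells, measured 11.90, 12.40, 12.32 and 11.92 in PVAT and 6.67, 7.39, 6.99 and 6.77 in TA. The 4 pigs were close together in each tissue, and the 36.1-fold difference (5.18, SE 0.12) had the lowest limma adjusted p of the comparison, 0.00023. Of 3 MBP probe sets only this 1 passed, and another differed by 0.85. NEFM, a neurofilament of axons, measured 11.88, 10.88, 12.87 and 10.40 in PVAT and 4.44, 6.28, 4.63 and 4.33 in TA (6.59, SE 0.59, limma adjusted p = 0.00208). Pig 81 was highest and pig 85 lowest in PVAT. NEFL, another neurofilament, differed by 5.60 (SE 0.71), and STMN2, a regulator of microtubules in axons, by 5.96 (SE 0.82).

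Both SLC5A7 and SNAP25, which are outside the list, ranked the pigs as NEFM did. SLC5A7, the choline transporter of cholinergic nerve endings, measured 10.23, 8.14, 11.07 and 7.26 in PVAT and 3.40, 3.65, 3.71 and 3.53 in TA. SNAP25, which fuses synaptic vesicles, measured 9.09 to 12.55 in PVAT and 4.28 to 7.11 in TA. In both genes pig 81 was highest and pig 85 lowest in PVAT, without overlap with TA, and the differences were 5.60 (SE 0.65) and 5.58 (SE 0.80) with limma adjusted p = 0.00428 and 0.00783. NEFH, a neurofilament by the authors' symbol, differed by 6.41 (SE 0.58), but the platform annotation names that probe set DES, a muscle gene. EEF1A2, an elongation factor of muscle and neurons, differed by 6.07 (SE 0.48), and by -0.01 on another probe set. CCK, the peptide cholecystokinin, measured 8.36, 10.83, 11.32 and 12.47 in PVAT and 4.41 to 5.43 in TA, so that it ranked the pigs as the heart muscle genes did. Its difference was 5.78 (SE 0.78) in the obese pigs and 3.14 in pig 73.

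**Figure D4:**
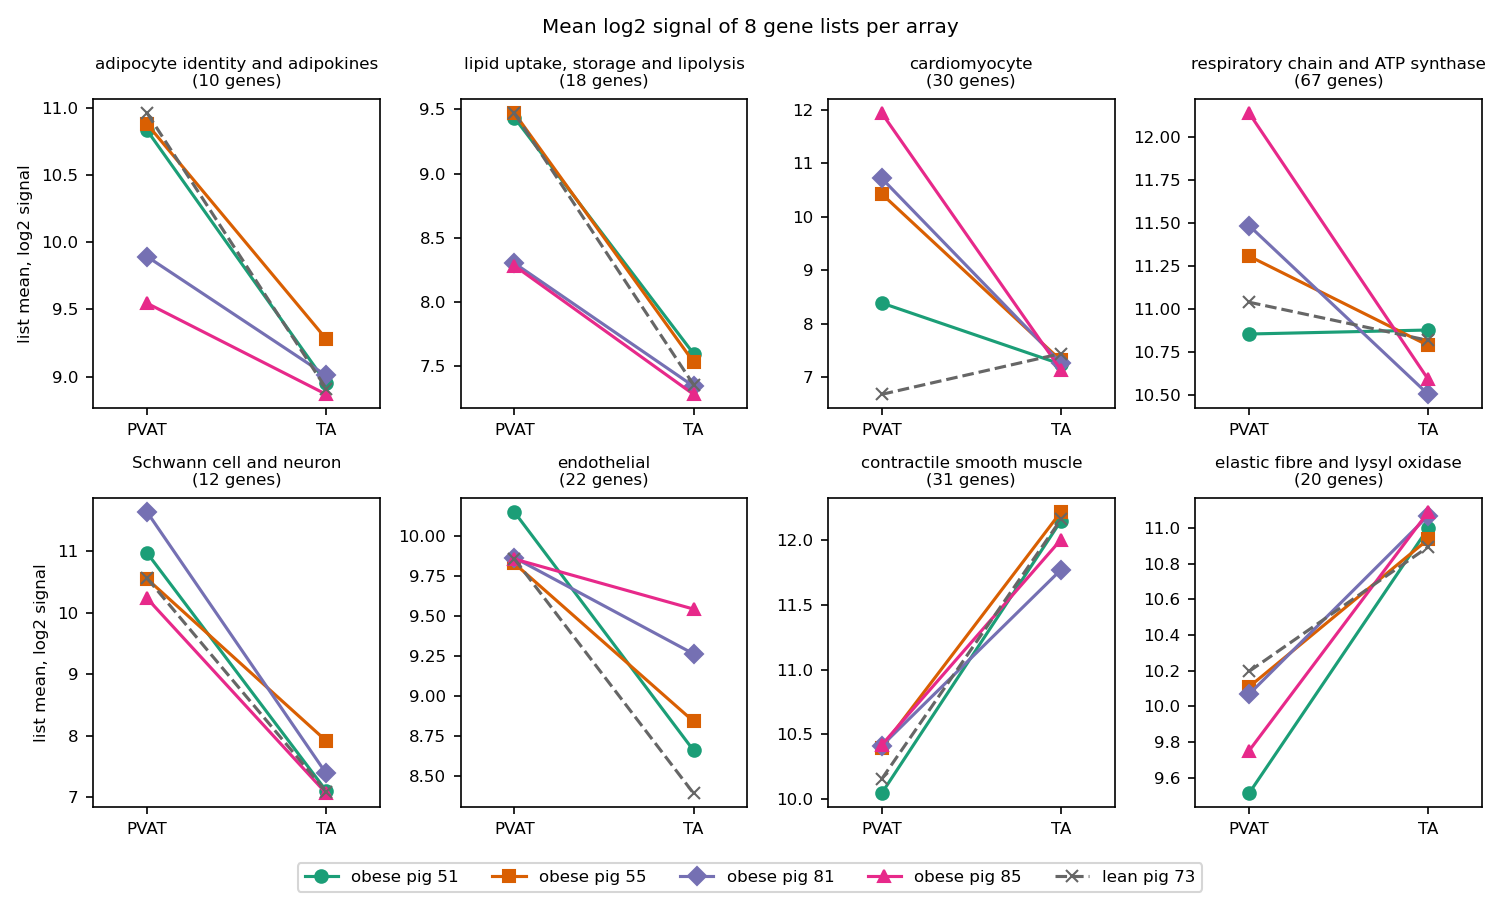
Mean log2 signal of 8 gene lists in PVAT and TA, with a line per pig joining its 2 tissues (obese pigs in colour, lean pig 73 dashed). The cardiomyocyte mean spans 8.39 to 11.94 in obese PVAT and is 6.68 in PVAT of pig 73, while the contractile smooth muscle mean is below that of TA in every pig shown.

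Blood vessel and lymphatic genes were higher in PVAT. Of 22 endothelial genes, 14 were higher (63.6%) and 2 were lower (9.09%), with a median of 1.05. The shares of all genes were 10.4% and 10.5%. VWF, the von Willebrand factor, measured 11.12, 10.44, 10.75 and 10.36 in PVAT and 7.89, 8.35, 9.23 and 9.32 in TA. The TA of pigs 81 and 85 was higher than that of pigs 51 and 55, and all PVAT values were above all TA values (1.97, SE 0.36, 3.92-fold, limma adjusted p = 0.0163). KDR, a receptor for the growth factor VEGF, was 4.38-fold higher (2.13, SE 0.17), PECAM1, an adhesion protein of endothelium, 2.46-fold and CLDN5, a tight junction protein, 2.86-fold. RGS5, a marker of pericytes and arterial smooth muscle, and AQP1, a water channel, were the 2 lower genes, at -2.39 (SE 0.18) and -0.94 (SE 0.18), of which 1 was called without pig 55, 81 or 85. The count of higher endothelial genes was 2 without pig 55 and 6 without pig 81. All 5 lymphatic genes were higher, also with pig 57 or whichever pig was left out. In the fit with lean pigs 5 were higher, and 3 with the cardiomyocyte list mean as a covariate there. PROX1, the regulator of lymphatic identity, measured 6.82 to 9.55 in PVAT and 4.32 to 5.73 in TA, lowest in pig 51 and highest in pig 85 in both (2.98, SE 0.24, limma adjusted p = 0.00148). LYVE1, a hyaluronan receptor of lymphatic endothelium and some macrophages, was 6.22-fold higher, and RELN, a secreted glycoprotein, 8.84-fold.

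Fibroblast genes were higher as well, with 7 of 16 passing upward (43.8%) and 1 downward (6.25%), against 10.4% and 10.5% of all genes. TCF21, a transcription factor of epicardium-derived fibroblasts, measured 9.98, 10.90, 10.28 and 10.14 in PVAT and 4.10, 5.35, 4.81 and 4.80 in TA. The tissues were more than 4 units apart in every pig, and the difference of 5.56 (SE 0.14) shared the lowest limma adjusted p, 0.00023. APOD, a lipid-binding protein, measured 11.21, 12.57, 11.66 and 10.85 in PVAT and 7.36, 9.31, 7.57 and 7.24 in TA (3.70, SE 0.17, limma adjusted p = 0.000683). Pig 55 was highest in both tissues. DPT, a matrix protein of fibroblasts, was 4.61-fold higher, and PDGFRB, a growth factor receptor of mural cells, was lower by 0.57 (SE 0.13), a call that was lost without pig 55, 81 or 85. A second PDGFRB probe set differed by -0.05 and did not pass.

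Immune cell genes showed smaller differences. Of 17 macrophage genes, 1 was higher (5.88%, against 10.4% of all genes). This was CSF1R, the receptor for the macrophage growth factor (0.82, SE 0.14, 1.76-fold, limma adjusted p = 0.0142). CD163, a scavenger receptor of macrophages, measured 9.39, 11.33, 9.81 and 9.75 in PVAT and 9.70, 10.10, 7.83 and 7.42 in TA. The groups overlapped and the difference of 1.31 (SE 0.44) did not pass (limma adjusted p = 0.0902), while its other, dimmer probe set passed with 1.79. The macrophage list mean of TA was 10.47 and 10.37 in pigs 51 and 55 but 8.78 and 8.67 in pigs 81 and 85. The 28S/18S ratio of the TA samples was split in the same way, at 1.28 and 1.29 against 0.61 and 0.57, and with it as a covariate 8 macrophage genes were higher. Pigs 81 and 85 were also killed on the same date. The part of ratio or date in the result was not tested. The count was 6 without pig 51, 0 without pig 55 and 10 within pigs 81 and 85 alone. Of 10 lymphocyte and antigen presentation genes, 5 were higher, such as the chemokine CCL5 (1.27, SE 0.18) and HLA-DRA, an antigen-presenting class II chain that the platform names SLA-DRA (1.12, SE 0.15). Without pig 55 that count was 1, and it was 2 without the probe sets whose 2 symbols differ.

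Markers of other tissues were few on the array. Of 3 mesothelial genes, 2 keratins were higher. KRT19 measured 8.69, 8.99, 7.98 and 7.03 in PVAT and 6.04 to 6.49 in TA (1.90, SE 0.35, limma adjusted p = 0.0166), and the mesothelial marker MSLN has no probe set under that symbol in the table used here. Neither keratin passed without pig 55 or with pig 57 added. Of 6 epithelial genes, 1 was higher, the cadherin CDH1 (1.84, SE 0.23), and 1 was lower, the desmosome protein PKP3 (-1.19, SE 0.15). Each is 16.7% of the list, against 10.4% higher and 10.5% lower among all genes. Of 3 erythrocyte genes 1 was higher. This was HBB, the beta-globin of red cells by the authors' symbol, 11.9-fold higher (3.57, SE 0.53), on a probe set that the platform names OAZ1.

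The contractile smooth muscle genes were lower in PVAT almost as a whole. Of 31 measured genes, 29 were lower (93.5%) and 1 was higher (3.23%), with a median of -1.77. The shares of all genes were 10.5% and 10.4%. CNN1, a calponin that binds actin, measured 9.58, 10.86, 10.74 and 10.10 in PVAT and 13.20, 13.33, 13.39 and 13.21 in TA. TA was nearly constant and every PVAT value was below it, with a 7.80-fold difference (-2.96, SE 0.22, limma adjusted p = 0.00122). MYH11, the smooth muscle myosin heavy chain, measured 12.37, 12.72, 12.97 and 12.16 in PVAT and 14.31, 14.35, 14.17 and 14.24 in TA (3.28-fold, limma adjusted p = 0.00317). TAGLN, an actin-binding protein, was 3.19-fold lower. PDLIM7, a scaffold protein of actin fibres, was 9.36-fold lower (-3.23, SE 0.21), TES, a focal adhesion protein, 14.7-fold lower (-3.87, SE 0.18), and KCNMB1, a subunit of the calcium-activated potassium channel, 8.92-fold lower (-3.16, SE 0.20). The exception was CAP2, an actin regulator that heart muscle also makes, at 9.14, 9.79, 10.08 and 10.91 in PVAT and 8.73, 7.99, 6.84 and 7.91 in TA (2.11, SE 0.48, limma adjusted p = 0.0322), which was not called without pig 55, 81 or 85 and was 1 of 2 without pig 51. Leaving out a pig gave 22 to 28 lower genes, and adding pig 57 gave 15.

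Ion channels moved in the same direction, with 8 of 19 lower and 0 higher. KCNMA1, the pore of that potassium channel, measured 7.02, 8.31, 8.58 and 8.44 in PVAT and 11.81, 11.35, 11.33 and 11.18 in TA (10.1-fold lower, limma adjusted p = 0.00389). ANO1, a calcium-activated chloride channel, was lower by 3.10 (SE 0.17), and TRPC1, a cation channel, was 2.77-fold lower. With pig 57 added the count was 4. Among vasoactive receptors and signalling genes 3 of 19 were lower (15.8%) and 2 higher (10.5%), against 10.5% and 10.4% of all genes. ADRA1B, an alpha-1 adrenergic receptor, measured 6.51, 6.54, 6.26 and 6.63 in PVAT and 10.47, 10.22, 10.89 and 10.94 in TA (-4.14, SE 0.19, limma adjusted p = 0.000683). PDE5A, which degrades cyclic GMP, was 2.37-fold lower and GUCY1A3, a subunit of the nitric oxide receptor, 1.58-fold lower, while EDNRB, an endothelin receptor, was 1.55-fold higher. With pig 57 the count of lower genes was 1, and without pig 51, 55 or 85 the count of higher genes was 1.

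The extracellular matrix of the elastic artery was the other large lower group. Of 20 elastic fibre and lysyl oxidase genes, 14 were lower (70%) and 1 was higher (5%), with a median of -1.34. The shares of all genes were 10.5% and 10.4%. ELN, which encodes elastin, measured 8.46, 9.50, 10.44 and 9.50 in PVAT and 13.30, 13.07, 13.43 and 13.59 in TA. Pig 51 was lowest and pig 81 highest in PVAT, and all PVAT values were below TA (14.7-fold, -3.87, SE 0.31, limma adjusted p = 0.00148). LTBP2, which binds fibrillin, was 10.4-fold lower, FBN2, a fibrillin, 5.41-fold and LOXL1, a crosslinker of elastin, 4.58-fold. FBLN2, a fibulin, was the 1 higher gene (1.14, SE 0.14), beside another when pig 51 was left out. With pig 57 added no gene of this list was lower at the threshold, and the list mean of its TA array was 8.26, against 10.94 to 11.09 in the other TA arrays.

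Collagens were lower in part. Of 15 collagens, 7 were lower (46.7%) and 1 higher (6.67%), with a median of -0.76. The shares of all genes were 10.5% lower and 10.4% higher. COL21A1 was 3.39-fold lower (-1.76, SE 0.12), and the microfibrillar collagens COL6A1 and COL6A2 were 2.70-fold and 2.66-fold lower. The platform annotation names the COL6A1 probe set LOC100623720, and 2 of 3 COL6A1 probe sets passed. COL1A1, the main fibrillar collagen, measured 10.82, 12.35, 12.96 and 12.33 in PVAT and 13.02, 12.93, 13.17 and 13.22 in TA, and its difference of -0.97 (SE 0.33) did not pass (limma adjusted p = 0.0956). COL5A3 was the higher one (1.47, SE 0.31), but not without pig 51, 55 or 81. The count of lower collagens was 3 without pig 55, 4 without pig 85 and 0 with pig 57.

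Among 28 proteoglycans and matricellular proteins 10 were lower and 7 higher. HAPLN1, which links hyaluronan to proteoglycans, measured 4.39, 3.53, 6.03 and 4.09 in PVAT and 10.17, 9.90, 10.51 and 9.72 in TA (-5.56, SE 0.31, limma adjusted p = 0.000771). BGN, the proteoglycan biglycan, was 5.57-fold lower and CYR61, a matricellular protein, 5.78-fold lower. THBS4, a thrombospondin, went the other way, at 10.73, 11.22, 11.53 and 11.21 in PVAT and 6.39, 7.77, 6.97 and 6.59 in TA (18.9-fold higher, limma adjusted p = 0.000771). The cartilage intermediate layer protein CILP was 5.28-fold higher. Without pig 55 the count of higher genes was 4, and with pig 57 the count of lower genes was 1.

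In the basement membrane list 6 of 17 were lower and 3 higher. The lower ones included the collagen IV chains COL4A5 (9.67-fold), COL4A2 (2.70-fold) and COL4A1 (2.43-fold) and the laminin chain LAMA5. The higher ones were NID1, which links laminin to collagen IV (5.41-fold, 2.44, SE 0.13), and the laminin chains LAMA2 (3.85-fold) and LAMA3. The lower count was 1 with pig 57. Of 17 matrix proteases and inhibitors 7 were lower (41.2%) and 1 higher (5.88%), against 10.5% and 10.4% of all genes. ADAMTS1, a metalloprotease that cleaves proteoglycans, measured 10.27, 11.31, 11.66 and 10.94 in PVAT and 13.01, 13.44, 13.58 and 13.10 in TA, without overlap (4.71-fold lower, limma adjusted p = 0.00136). PLAT, the tissue plasminogen activator, was 2.61-fold higher (1.39, SE 0.19), and was the 1 higher gene (2 without pig 51). The count of lower proteases and inhibitors was 4 without pig 55, 3 without pig 85 and 0 with pig 57.

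**Figure D5:**
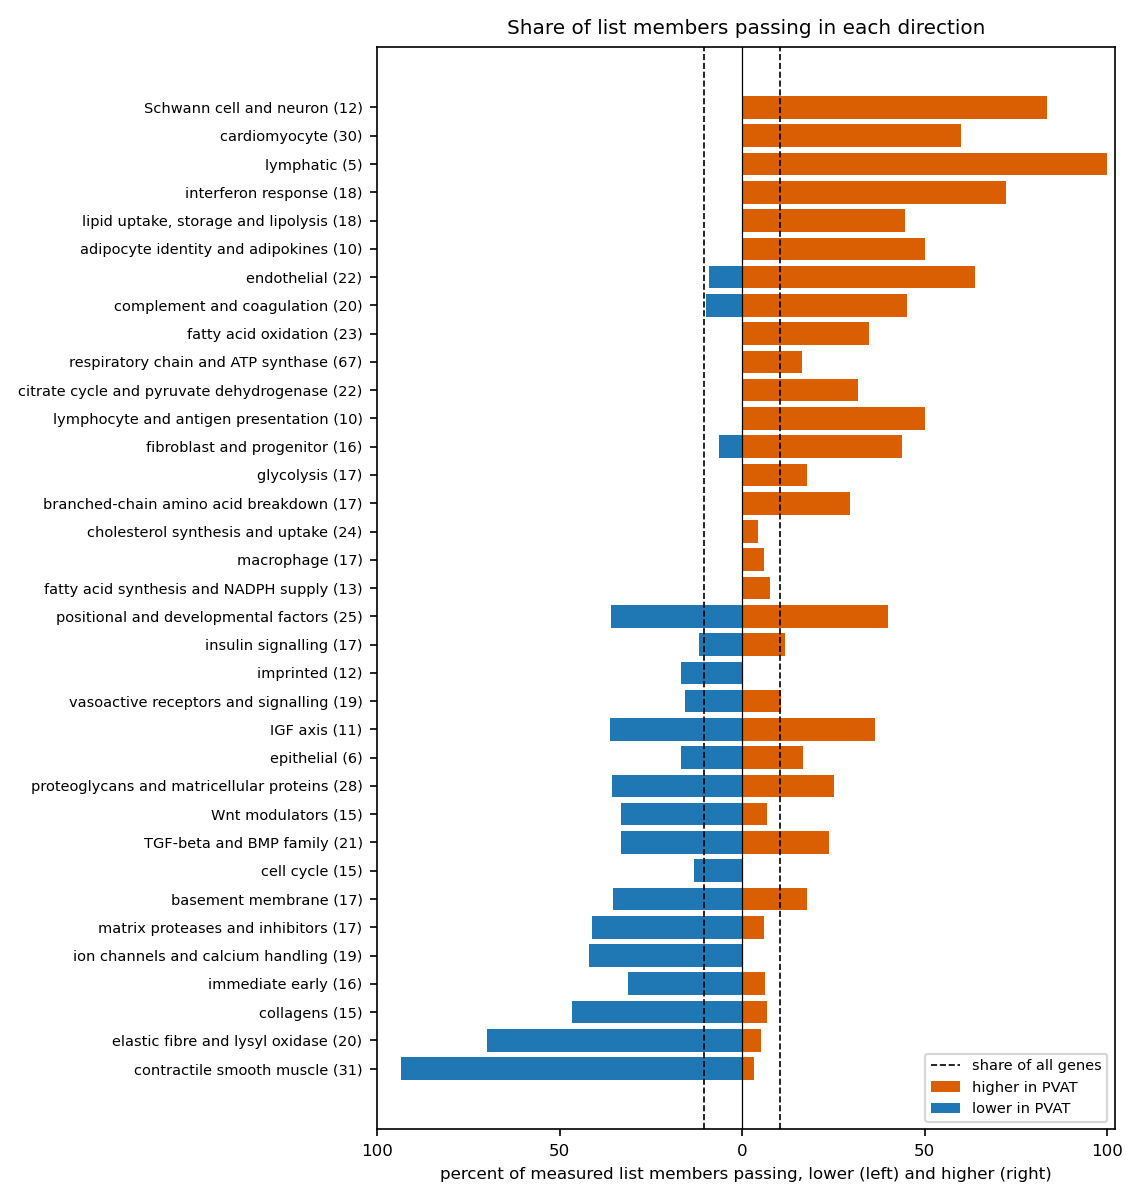
Percent of the measured members of each list (number in brackets) that passed higher (right) or lower (left) in PVAT, ordered by the list's median difference, for the lists with at least 5 measured genes. Dashed lines mark the shares of all genes, 10.4% higher and 10.5% lower.

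Positional genes, which keep a record of where in the embryo a cell arose, were divided by tissue. Of 25 measured, 10 were higher and 9 lower, against 10.4% and 10.5% of all genes. HOXA3, a homeobox gene, measured 6.47, 6.41, 6.87 and 5.70 in PVAT and 11.53, 11.59, 11.38 and 11.42 in TA (-5.12, SE 0.21, limma adjusted p = 0.000577). TA was nearly constant and the tissues were more than 4 units apart. HOXA7, MEIS1, a HOX cofactor, and PRRX1, a mesenchymal homeobox gene, were lower by 1.52, 2.02 and 1.68. On the higher side, GATA4, a factor of heart and epicardium, measured 8.02, 8.28, 8.16 and 8.93 in PVAT and 5.29, 5.22, 5.24 and 5.58 in TA (3.02, SE 0.15, limma adjusted p = 0.000716). TBX3 and NR2F1, transcription factors of heart development, were 5.82-fold and 4.53-fold higher. With pig 57 added, 3 positional genes were lower.

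SFRP2, a secreted Wnt modulator, was high in TA and low in PVAT. It measured 5.50, 5.77, 7.35 and 5.52 in PVAT and 13.03, 12.91, 12.69 and 13.07 in TA (-6.89, SE 0.40, limma adjusted p = 0.000885). Of 15 Wnt modulators 5 were lower (33.3%) and 1 was higher (6.67%), against 10.5% and 10.4% of all genes. The higher one was SFRP4, by 3.12-fold. RSPO3, an enhancer of Wnt signalling, measured 6.66, 7.53, 5.90 and 5.35 in PVAT and 8.53, 9.30, 11.73 and 10.61 in TA (-3.68, SE 0.79, limma adjusted p = 0.0269). The lower count was 2 without pig 55, 1 without pig 85 and 1 with pig 57. Other genes with large lower differences were BDNF, a nerve growth factor (-4.86, SE 0.24), OSR1, a transcription factor of mesoderm (22.1-fold lower), and PRDM6, a repressor found in vascular smooth muscle (18.1-fold lower). ZNF385D, a zinc finger gene, was lower by 4.83 (SE 0.35), and PRSS35, a protease-like gene, by 4.41 (SE 0.47).

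The TGF-beta and BMP family was also mixed, with 5 of 21 higher and 7 lower. FST, the activin inhibitor follistatin, was 2.98-fold higher and TGFBR2, a TGF-beta receptor, 1.97-fold higher, while INHBB, an activin subunit, was 3.44-fold lower and BMP4 2.33-fold lower. ID1 and ID2, inhibitors of helix-loop-helix factors, went in opposite directions, at 1.46 (SE 0.21) and -1.19 (SE 0.16). The lower count was 3 without pig 55 and 1 with pig 57, which left 3 higher. In the IGF axis 4 of 11 were higher and 4 lower. IGF1 measured 11.63, 11.11, 11.01 and 11.13 in PVAT and 8.94, 9.10, 9.16 and 9.35 in TA (4.24-fold higher, limma adjusted p = 0.00211). Of 6 IGF1 probe sets 5 passed, and the lowest difference was 0.22. Its receptor IGF1R was 2.53-fold lower and IGF2 2.38-fold lower, though only 1 of 6 IGF2 probe sets passed and another differed by -0.19, and the binding protein IGFBP6 was 5.35-fold higher. The higher count was 2 without pig 55, and the lower count was 1 without pig 55, without pig 85 or with pig 57. Of 12 imprinted genes 2 were lower (16.7%, against 10.5% of all genes). These were IGF2 and NDN, of which neither was called without pig 55 or pig 85 and 1 was without pig 51 or pig 81.

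Interferon response genes were higher, with 13 of 18 passing upward, 0 downward and a median of 1.20. OAS1, an RNA sensor, measured 10.51, 10.92, 9.48 and 10.40 in PVAT and 8.82, 8.93, 7.63 and 8.34 in TA. Pig 81 was lowest in both tissues, and the tissues did not overlap (3.73-fold, limma adjusted p = 0.00102). IFIT1, IFIT2 and IFIT3, which bind viral RNA or act beside it, were 3.16-fold, 3.38-fold and 2.97-fold higher. Of 3 IFIT2 probe sets 2 passed, and the lowest difference was 0.26. Leaving out a pig gave 10 to 14 higher genes. In complement and coagulation 9 of 20 were higher (45%) and 2 lower (10%), against 10.4% and 10.5% of all genes. C7, a component of the membrane attack complex, differed by 3.74 (SE 0.16, limma adjusted p = 0.000579), and CFI, a protease that limits complement, was 4.44-fold higher. A2M, a protease inhibitor, was 11.3-fold lower, although its other probe set differed by -0.62. With pig 57 the higher count was 5, and the lower count was 1 whichever pig was left out.

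Immediate early genes, which respond within minutes to stimulation or handling, were lower in part. Of 16 genes 5 were lower (31.2%) and 1 higher (6.25%), against 10.5% and 10.4% of all genes, with a median of -0.74. ATF3, a stress-induced factor, measured 6.10, 7.14, 9.69 and 8.84 in PVAT and 8.77, 9.95, 13.17 and 11.42 in TA. Pig 81 was highest and pig 51 lowest in both tissues, so the groups overlapped although each pig had less in PVAT (7.36-fold, -2.88, SE 0.19, limma adjusted p = 0.000992). EGR1 and FOS were 4.49-fold and 3.67-fold lower, and KLF4, a transcription factor, was 1.79-fold higher, but was not called without pig 55. With pig 57 no gene of this list passed. Of 15 cell cycle genes 2 were lower (13.3%, against 10.5% of all genes). These were the replication genes MCM3 (-1.13, SE 0.13) and MCM5 (-0.81, SE 0.16), of which 1 was called whichever pig was left out.

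The comparison with lean pigs asked whether the tissue difference changed with obesity. No probe set passed the limma test of the difference between obese and lean pigs (0% of 14327, smallest adjusted p = 1.00), and 444 (3.1%) had an unadjusted p under 0.05, where 5% of all would be 716. In the 5 lean pairs 49.7% of probe sets differed between PVAT and TA in limma. Of the 1760 genes called in the obese pigs, 1759 had the same sign in the lean mean. Among fat genes, the list medians in obese and lean pigs were 1.13 and 1.23 for adipocyte identity, 1.17 and 1.21 for lipid uptake and storage, and 0.22 and 1.38 for fatty acid synthesis. The difference of FABP4 was 2.53 in obese and 2.75 in lean pigs (-0.22, SE 0.62, limma adjusted p = 1.00). For FASN the difference was 1.21 in obese and 3.23 in lean pigs, a change of -2.03 (SE 0.62, limma adjusted p = 1.00). For LPL it was 4.03 and 5.95 (-1.92, SE 0.47, limma adjusted p = 1.00), and for PPARG 2.39 and 4.03 (-1.63, SE 0.55, limma adjusted p = 1.00). For the cardiomyocyte genes the medians were 2.66 and 2.06, and for contractile smooth muscle -1.77 and -1.81. These misses do not show that obese and lean pigs were alike, since 4 and 5 pairs limit the precision.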

How the data were processed

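RNA of PVAT and TA was measured on Affymetrix porcine arrays, 1 array per tissue and pig. The deposited values are log2 signals per probe set, made by the authors with the affy package, per the submitters' processing notes; its version, the background correction and the normalization are not given in the sources used here. Every probe set of the table reaches 6.64 in at least 11 of 32 arrays, so weakly expressed genes had been left out before. Precision is limited by the number of arrays. Genes carry the human symbols of the authors' own table, which covers 11602 probe sets (8390 symbols, with 28 that had turned into dates set aside). Where both exist, the platform annotation differs for 728 of 6611 probe sets, and its symbol is given for such named genes. No genome positions or sequences come with the tables used here.

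PVAT was compared with TA with the limma package (version 3.58.1, R 4.3.3) by its two-sided moderated test (lmFit, eBayes) with pig as a block, since both tissues came from the same animal, and with Benjamini-Hochberg adjustment over all 14327 probe sets. Deviations from the tissue means of the same pig correlated at -0.23, 0.28, 0.04 and -0.02 in pigs 51, 55, 81 and 85. The residual degrees of freedom were 3 and the prior ones 2.71. The obese and lean differences were compared by an interaction contrast over 4 obese and 5 lean pairs. The script was tested on simulated data.

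The arrays, the 39 gene lists and the rules for naming genes were chosen with earlier results of these data known. Named genes were the 10 largest higher and lower passing genes with the same sign in all pairs, the 10 largest higher genes also at least 1 higher in lean pig 73, up to 4 passing genes per list and direction, and some fixed markers; 1 gene that these rules name is not reported here. Lists are described by counts and medians, without a set test. Alternatives were the fit without the block, leaving out each pig, adding pig 57, other scalings and priors, and a filter on the lowest 30%. Others were the mean of probe sets, the 28S/18S ratio as a covariate, and obese and lean pigs in 1 fit. The cardiomyocyte list mean was a covariate in that last fit, not in a fit of the obese pairs alone. Chosen after seeing the data were pigs 81 and 85 alone and lists without conflicting symbols.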

Additional observations from a re-analysis of the deposited data

Results flagged for a closer look

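In groups of 4 arrays, a value was singled out where its gap to the nearest other array exceeded Dixon's 95% critical share of the range. This met 17 of 424 groups, where chance alone would give about 21 (1 in 20).

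In TA, pig 55 stood above the other 3 pigs for 5 genes. NEFM was 6.28 (others 4.33 to 4.63), AGT 7.88 (6.65 to 6.72), CFD 10.56 (9.44 to 9.60), APOD 9.31 (7.24 to 7.57) and CHRDL1, a BMP inhibitor, 7.22 (5.98 to 6.05). All 5 are genes that were higher in PVAT. In TA of pig 81, LAMA5 was high at 9.33 (9.03 to 9.07), IFIT1 was low at 7.84 (8.44 to 8.51), and the mean of the vasoactive list was high at 9.04 (8.72 to 8.77).

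In PVAT, pig 55 was high for TRIB1 at 8.26 (8.01 to 8.04), C7 at 10.54 (9.20 to 9.42) and CD55, a complement inhibitor, at 9.09 (8.46 to 8.56). Pig 81 was high for SFRP2 at 7.35 (5.50 to 5.77) and NR2F1 at 9.90 (9.25 to 9.35). Pig 85 was high for SDHA at 11.98 (11.33 to 11.43). Pig 51 was high for IGF2 at 9.90 (9.40 to 9.44) and for the endothelial list mean at 10.15 (9.83 to 9.86), and low for the contractile smooth muscle list mean at 10.04 (10.40 to 10.42).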

How the results depend on the processing

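The counts of probe sets higher and lower in PVAT, 1398 and 1609, ranged from 540 to 1426 and from 604 to 1228 when 1 pig was left out. They were 835 and 501 with pig 57, 2708 and 2558 with the 28S/18S ratio as a covariate, and 2348 and 2656 with obese and lean pigs in 1 fit with the pig as a block. Pigs 81 and 85 alone gave 1105 and 849. Without the replicate block they were 1797 and 2013, and 2843 of the 3007 probe sets stayed called. The members of all lists that were higher and lower, 172 and 123, ranged from 77 to 204 and from 81 to 108 without 1 pig. With the 28S/18S ratio 292 were higher, and with pig 57 31 were lower. The test of obese against lean differences gave 0 probe sets in all 12 alternatives run, with pig 57 and without the block included. Of the 173 named genes, 1 changed sign. This was ACTA1, at 3.89, which was at -0.055 with the cardiomyocyte list mean as a covariate in the fit with lean pigs. Over 2569 values of these genes under the alternatives, 2264 kept the side of the threshold, 298 fell below it and 6 rose above it. The cause of these changes was not tested.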
